A study of Mus musculus with 6 samples.

Results

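The genes that encode the proteins of the 2 ribosomes of a mouse cell, the cytosolic and the mitochondrial one, were examined in N2A neuroblastoma cells depleted of the long non-coding RNA Dali. Members were the genes whose symbol follows the ribosomal protein pattern (Rpl, Rps, Rplp, Rpsa, Mrpl or Mrps with a number, without the Rps6k kinases) and that had a probe set annotated to that gene alone. Where a gene had several such probe sets, the one with the highest mean was used. This gave 138 of the 19938 genes with a probe set of their own. Of these, 61 were cytosolic (38 large and 23 small subunit) and 77 mitochondrial (48 large and 29 small). Class and subunit were read from the symbol alone (Rpl, Rplp and Mrpl as large, Rps, Rpsa and Mrps as small). They were not checked against the subunit in which each protein is found. Another 19 ribosomal protein genes, Rpl3, Rpl11, Rps27 and Rpl39 among them, were named only on probe sets shared with other genes and were not analysed here.

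All 6 samples were N2A cells, a mouse neuroblastoma line, transiently transfected with 1.5 ug of an shRNA expression construct (a short hairpin RNA driven by a U6 promoter). In the control group (n = 3) the vector was non-targeting, and in the Dali knockdown group (n = 3) a single construct targeted Dali, so that an effect of Dali depletion and an effect of this one hairpin on other transcripts cannot be told apart. Cells were harvested 2.5 days later, and 200 ng of total RNA per sample went onto Affymetrix Mouse Gene 1.0 ST arrays. Levels are log2 values normalised by RMA, and a difference is knockdown minus control on that scale. No probe set named Dali, so its depletion was not checked in these arrays. Fewer cells of one kind and less RNA per cell cannot be told apart in such bulk samples.

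Each ribosome joins a small subunit, which reads the mRNA, to a large subunit, which forms the peptide bond. Cytosolic ribosomal protein mRNAs are among the most abundant of a growing cell and typically begin with a C followed by a run of pyrimidines (the 5′ terminal oligopyrimidine tract, TOP), through which mTOR and LARP1 control their translation. Mitochondrial ribosomal proteins are encoded in the nucleus, made in the cytosol and imported, and their ribosome translates the few proteins of the mitochondrial genome, which are subunits of the respiratory chain and of ATP synthase. Transcription of many of these nuclear genes is known to depend on ETS-family factors such as GABPA, whose core site reads CGGAAG.

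The promoter stretches below are shown because both classes of genes share this sequence, which the choice of members did not use. They are the 60 bases before the transcription start from RefSeq (GRCm38.p6), written 5′ to 3′ on the strand of the gene, with CGGAAG or its reverse complement CTTCCG in capitals. Mrpl47 lies at chr3:32736756-32736815 (minus strand), Mrpl58 at chr11:115403692-115403751 (plus), Mrps27 at chr13:99344726-99344785 (plus), Rpl41 at chr10:128549169-128549228 (minus) and Rps6 at chr4:86857368-86857427 (minus).
Mrpl47: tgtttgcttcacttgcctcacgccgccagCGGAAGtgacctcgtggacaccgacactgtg
Mrpl58: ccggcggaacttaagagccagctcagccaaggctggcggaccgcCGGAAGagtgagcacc
Mrps27: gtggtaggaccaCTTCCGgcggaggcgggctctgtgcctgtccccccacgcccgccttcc
Rpl41: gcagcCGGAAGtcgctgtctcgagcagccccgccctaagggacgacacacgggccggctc
Rps6: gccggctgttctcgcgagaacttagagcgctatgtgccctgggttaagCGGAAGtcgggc

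The RefSeq promoter table, with 250 bases before and 50 after the first listed start, held 117 of the 138 members. CGGAAG was found on either strand in 33 of 49 cytosolic promoters (67.3%) and 37 of 68 mitochondrial promoters (54.4%), against 17.2% of all 27025 promoters of this length and 21.5% of the 17492 of protein-coding genes. The classes differed at the start itself. The next stretches span 10 bases on each side of the start, Rps6 at chr4:86857358-86857377 (minus), Rpl12 at chr2:32961702-32961721 (plus), Rplp2 at chr7:141447641-141447660 (plus), Mrpl47 at chr3:32736746-32736765 (minus) and Mrpl58 at chr11:115403742-115403761 (plus), with a run of a C and further pyrimidines in capitals where one was found. They are shown to set cytosolic starts that hold such a run beside mitochondrial starts that do not.
Rps6: gaagtcgggCCTCTTTTTCg
Rpl12: agcaggatccgtCTTTTCgg
Rplp2: cagcgtCTTCCTTTCgccgc
Mrpl47: cgacactgtgggtctccatt
Mrpl58: agtgagcaccggaagcggtc
A C followed by 4 pyrimidines, beginning between position -2 and position 5 around the start, was found in 16 of 49 cytosolic promoters (32.65%) and 8 of 68 mitochondrial ones (11.76%), against 12.21% of all promoters. A single listed start per gene was searched, the letters were chosen after reading the sequences, and a match is a description of these letters and not a site.

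Cytosolic ribosomal protein transcripts showed little difference between knockdown and control arrays, and mitochondrial ones were spread more widely around a slightly positive median. The cytosolic differences had a median of 0.01 and ranged from -0.14 to 0.11, and 57 of 61 (93.4%) lay within 0.1 of no difference, against 55.3% of all genes. The mitochondrial differences had a median of 0.07 and ranged from -0.40 to 0.44, and 44 of 77 (57.1%) lay within 0.1. The median of all genes was 0.02, with a middle range from -0.07 to 0.10. Level and noise also differed between the classes. The median log2 level was 13.05 for cytosolic genes, 10.41 for mitochondrial genes and 8.36 for all genes. The median residual SD (spread within groups) was 0.061, 0.104 and 0.125 in the same order. Cytosolic levels reached 14.26, near the highest value of any probe set in these arrays (14.8). The part of level and noise in the spread of differences was not tested. The mean was higher in knockdown for 36 of 61 cytosolic genes (59.0%), 54 of 77 mitochondrial genes (70.1%) and 55.0% of all genes.

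**Figure D1:**
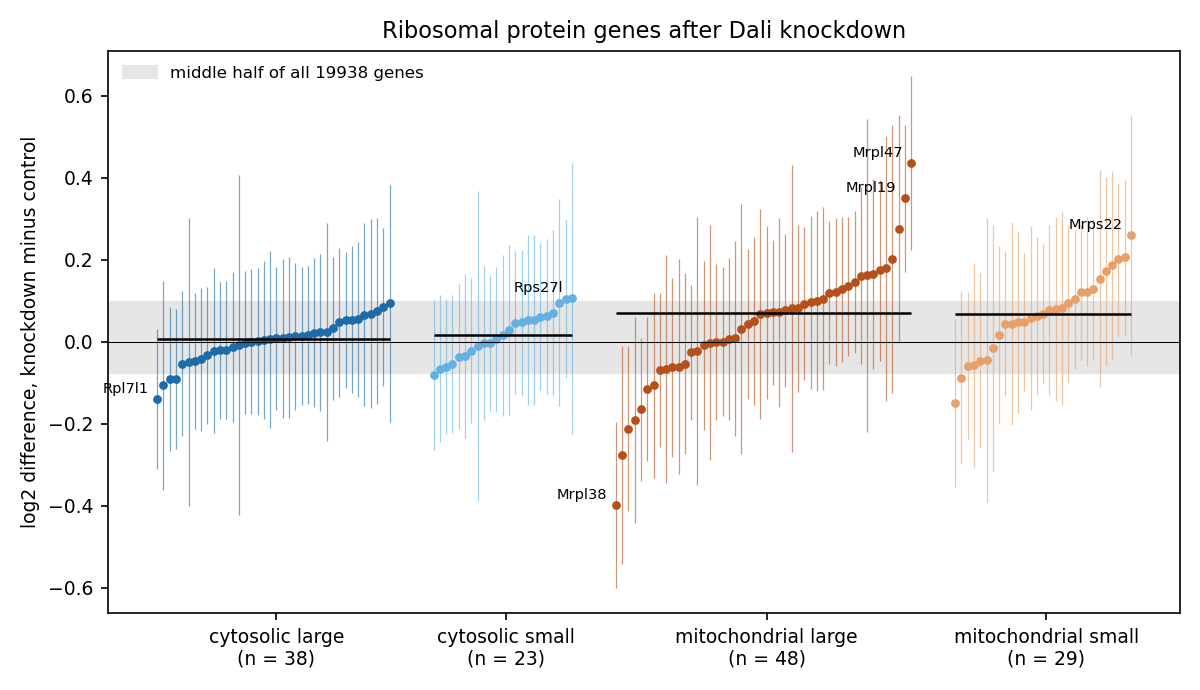
Log2 difference (knockdown minus control, y axis) of each of the 138 ribosomal protein genes, ordered by size within the 4 subunit groups, with 95% intervals from limma as thin lines, the median of each group as a black bar and the middle range of all 19938 genes in grey. The cytosolic points keep between -0.14 and 0.11, while the mitochondrial points reach from -0.40 (Mrpl38) to 0.44 (Mrpl47).

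No ribosomal protein gene was called by the limma test, in which a call needed a Benjamini-Hochberg adjusted p under 0.1 and at least 1.3-fold, while 133 of 11705 probe sets were called in all (1.14%). Only 34 members passed the variance filter that precedes this test, 8 of 61 cytosolic (13.1%) and 26 of 77 mitochondrial (33.8%), against 51.1% of all genes, and the others could not be called. In the same fit without the filter, unadjusted p was under 0.05 for 0 of 61 cytosolic and 7 of 77 mitochondrial genes (9.09%), beside a background of 11.1%. For 56 of 61 cytosolic genes (91.8%) and 57 of 77 mitochondrial genes (74.0%) the 95% interval of the difference lay wholly within 1.3-fold either way, as for 64.9% of all genes.

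With the replicate number as a block in the limma fit, 2 mitochondrial genes of the large subunit were called, Mrpl47 higher and Mrpl38 lower, and 0 cytosolic genes. The background of that fit was 7.65% (896 of 11705 probe sets), and 17 of 77 mitochondrial (22.1%) and 0 of 61 cytosolic genes had an unadjusted p under 0.05, beside 20.9% of all genes. The 3 knockdown arrays lay above the 3 control arrays for 12 of 77 mitochondrial genes (15.6%) and 1 of 61 cytosolic genes (1.64%), against 8.47% of all genes. They lay below for 5 of 77 (6.49%) and 4 of 61 (6.56%), against 7.11%. The mitochondrial shares were thus near or above the background and the cytosolic ones near or below it, and no test of the shares was made. An exact permutation test on a single gene cannot give a two-sided p under 0.1 with 3 arrays against 3.

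Mrpl47, a protein of the mitochondrial large subunit, had the largest difference of all members. Its log2 value was 9.46, 9.62 and 9.70 in control replicates 1 to 3 and 9.94, 10.05 and 10.11 in the knockdown replicates, so the groups did not overlap. The difference was 0.44 (SE 0.14, 1.35-fold), with a limma adjusted p of 0.165 without the block and 0.0153 with it, and within the 3 replicate numbers it was 0.47, 0.43 and 0.41. A second probe set annotated to Mrpl47 had a difference of 0.04 (95% interval -0.19 to 0.26) with overlapping groups, so the rise with the replicate block was seen on 1 of its 2 probe sets.

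Mrpl38, a large-subunit protein found in mitochondrial but not in bacterial ribosomes, had the most negative difference. The control arrays gave 11.37, 11.34 and 11.18 and the knockdown arrays 10.81, 10.91 and 10.97. Every knockdown value was below every control value. The difference was -0.40 (SE 0.13, 1.32-fold lower), with a limma adjusted p of 0.203 without and 0.0319 with the block. Mrpl19, another large-subunit protein, was measured at 10.714, 10.646 and 10.624 in control and at 10.999, 10.956 and 11.080 in knockdown arrays. Its groups did not overlap either, but the difference of 0.35 (SE 0.13) amounted to 1.27-fold and stayed under the fold threshold, with a limma adjusted p of 0.263 and 0.0325 with the block. The calls of Mrpl47 and Mrpl38 with the block did not hold in every subset of the arrays. In the blocked limma fit the adjusted p of Mrpl47 was 0.0552, 0.18 and 0.154 without number 1, 2 or 3, and that of Mrpl38 was 0.0886, 0.245 and 0.142. Mrpl47 and Mrpl19 were called without number 1, where Mrpl38 stayed under 1.3-fold (-0.32), and none of the 3 was called without number 2 or 3.

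**Figure D2:**
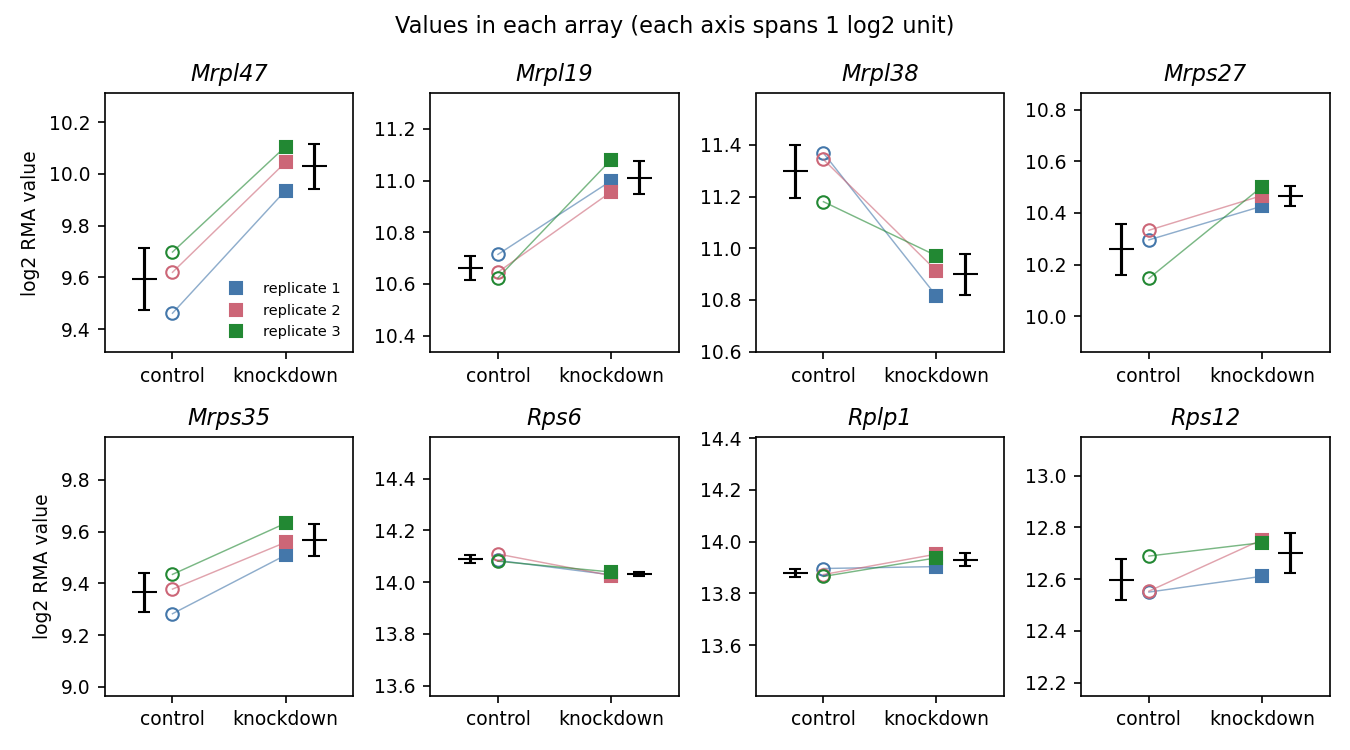
Log2 RMA value (y axis, each panel spanning 1 log2 unit) of 8 ribosomal protein genes in the control and knockdown arrays, coloured and joined by replicate number, with the mean and SD of each group (n = 3) beside the points. Mrpl47, Mrpl19, Mrps27 and Mrps35 are higher and Mrpl38 lower in all knockdown arrays than in all control arrays, while the separations of Rps6 (-0.06) and Rplp1 (0.05) are small and the groups of Rps12 overlap.

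Other mitochondrial large-subunit genes gave differences in both directions that did not pass the test. Mrpl17 was measured at 9.89, 10.00 and 10.09 in control and 9.48, 9.81 and 9.86 in knockdown arrays, without overlap, a difference of -0.28. Mrpl58, a peptidyl-tRNA hydrolase built into the large subunit, was measured at 11.11, 11.13 and 11.13 in control and 10.79, 10.89 and 11.05 in knockdown arrays, again without overlap (-0.21). Their limma adjusted p was 0.449 and 0.544. Mrpl18 had a difference of 0.28 with overlapping groups, and Mrpl22 one of -0.16 without overlap. Mrpl12, which is known to bind the mitochondrial RNA polymerase as well as the ribosome, had a mean of 10.996 ± 0.237 (SD, n = 3) in control and 11.077 ± 0.240 in knockdown arrays. Its control arrays alone ran from 10.76 to 11.23, wider than the difference of 0.08.

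Among the 29 genes with an Mrps symbol, grouped here as mitochondrial small subunit, 22 had a higher mean in knockdown. All knockdown arrays lay above all control arrays for 5 of 29 (17.2%), against 8.47% of all genes. Mrps27, a protein with pentatricopeptide repeats, was measured at 10.30, 10.33 and 10.15 in control and 10.43, 10.47 and 10.50 in knockdown arrays, a difference of 0.21. Mrps35 was measured at 9.28, 9.38 and 9.43 in control and 9.51, 9.56 and 9.63 in knockdown arrays (0.20). Both separated completely, and neither was called (limma adjusted p 0.552 and 0.558). Mrps22 had the largest difference of these 29 genes, 0.26. Its values were 10.08, 10.14 and 10.33 in control and 10.52, 10.18 and 10.63 in knockdown arrays, and the second knockdown array lay inside the control range. The most negative was Mrps24 (-0.15), with overlapping groups. Mrps9 differed by 0.08. The 3 homologues of the bacterial S18 protein, Mrps18a, Mrps18b and Mrps18c, gave 0.06, -0.06 and 0.19, all with overlapping groups.

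Of mitochondrial ribosomal proteins with other names, 4 were measured, and 0 were called with or without the block. Only 1 of the 4 passed the variance filter. Ptcd3, a small-subunit pentatricopeptide protein, differed by 0.23, and Gadd45gip1, a large-subunit protein first named for binding Gadd45, by 0.14.

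Among the cytosolic large-subunit genes, the largest negative difference was that of Rpl7l1, a paralogue of Rpl7. Its values were 11.73, 11.76 and 11.76 in control and 11.56, 11.60 and 11.67 in knockdown arrays, without overlap, and the difference of -0.14 (95% interval -0.31 to 0.03) did not pass the test. Rpl41, a ribosomal protein of very small size, differed by -0.09 and Rpl19 by -0.05, both without overlap. Rpl21 also differed by -0.09, but its groups overlapped. The largest positive difference was 0.09 for Rpl12, a protein at the base of the stalk. Its knockdown arrays were 10.91, 11.32 and 11.38 around control arrays of 11.07, 11.18 and 11.09, so the first knockdown array was the lowest of all 6.

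The stalk of the large subunit recruits the elongation factors. Its base, Rplp0, differed by -0.03 and its acidic proteins Rplp1 and Rplp2 by 0.05 and 0.00. Rplp1 was the only cytosolic gene with all knockdown arrays above all control arrays, at 13.904, 13.952 and 13.938 against 13.896, 13.873 and 13.866. Rpl5, which also binds Mdm2, differed by -0.02, Rpl10 by -0.02, and the RNA-binding Rpl22 by -0.01 with control arrays from 10.06 to 10.71.

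In the small subunit, Rps6 is the substrate of the S6 kinases downstream of mTOR. Its values were 14.08, 14.11 and 14.08 in control and 14.03, 14.03 and 14.04 in knockdown arrays. The groups did not overlap, at a difference of -0.06 (95% interval -0.22 to 0.10), and all 8 of its probe sets had a negative difference, from -0.09 to -0.04. Rps12 differed by 0.10 with overlapping groups, and its 14 probe sets lay between 0.07 and 0.11. Rps15a differed by 0.10 and Rps25 by -0.08. Rpsa, also known as the laminin receptor, differed by 0.06. Fau, a cytosolic ribosomal protein made as a fusion with a ubiquitin-like protein, differed by -0.01.

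Paralogues that replace a cytosolic ribosomal protein in certain tissues are known for Rpl3, Rpl10 and Rpl39. Rpl3l, the form of striated muscle, differed by 0.08, and the testis forms Rpl10l and Rpl39l by -0.05 and 0.06, all with overlapping groups. Rps27l, a known p53 target, had the largest positive difference of the cytosolic genes (0.11), and its control arrays spread from 11.67 to 12.13. The 7 paralogues with an l after the number in their symbol, Rpl7l1 among them, had a median of 0.01, the same at this rounding as the other 54 cytosolic genes.

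Probe sets of 1 gene could be compared for 47 members. The differences lay on one side of 0 for all probe sets of 35 genes and on both sides for 12. Of 302 probe sets of members, 0 were called without and 2 with the block. Cytosolic ribosomal proteins have many processed pseudogenes with nearly the same sequence, and the probe sequences were not among the data used, so signal from such copies cannot be told apart from that of the gene. The 3 probe sets of Rpl41 held identical values in every array.

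The 2 classes were compared by their medians within each replicate number. The cytosolic median was -0.05, 0.01 and 0.03 for numbers 1, 2 and 3, and the mitochondrial median -0.03, 0.08 and 0.13. Mitochondrial minus cytosolic was 0.02, 0.06 and 0.10, and 0.06 over all arrays. The order of the classes was thus the same in each of the 3 numbers, by amounts that differed several-fold between them. The difference of medians was 0.0027 without knockdown replicate 3 and 0.018 without control replicate 2, and among only the 34 members past the variance filter it was -0.0072. Knockdown arrays exceeded their control in all 3 numbers for 32 of 77 mitochondrial genes (41.6%) and 7 of 61 cytosolic genes (11.5%), against 21.5% of all genes. They were lower in all 3 for 11 of 77 (14.3%) and 9 of 61 (14.8%), against 19.9%. A high share of genes raised in all 3 numbers was not particular to mitochondrial ribosomal genes. It was 50% for cytosolic initiation factors, 54.5% for mitochondrial translation factors and 35.7% for genes of translation control by mTOR and LARP1, lists described below.

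**Figure D3:**
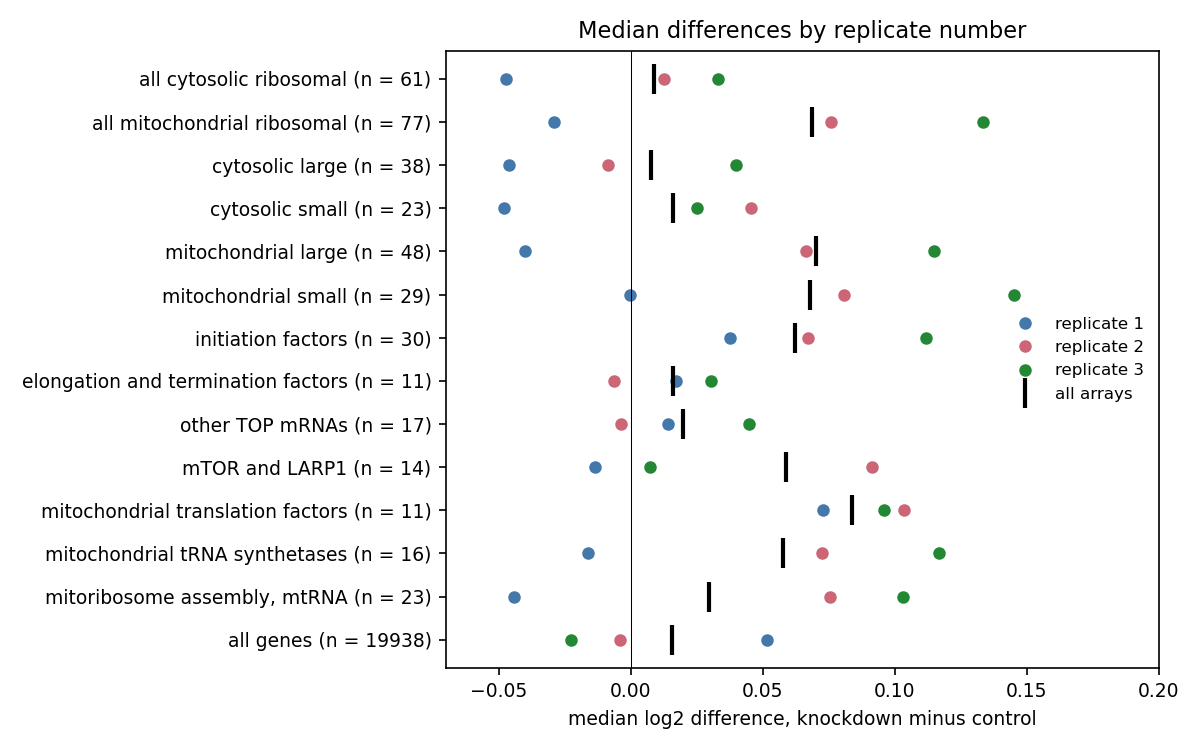
Median log2 difference (knockdown minus control, x axis) of the ribosomal protein groups, of related gene lists and of all genes, within each replicate number (coloured points) and over all arrays (black bars). The mitochondrial point (-0.03, 0.08, 0.13) lies to the right of the cytosolic point (-0.05, 0.01, 0.03) of the same replicate, and replicate 1 is negative for both.

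The difference between the knockdown and the control array of replicate number 1 stood apart in most lists of markers of other cell types. In that number the median difference was 0.30 for the 6 fibroblast markers, 0.21 for the 5 microglia and macrophage markers, 0.26 for the 4 epithelial, 0.12 for the 4 astrocyte and 0.11 for the 4 endothelial markers, and 0.05 for all genes. In numbers 2 and 3 these lists lay between -0.15 and 0.11, and the endothelial markers were at 0.11 in number 3 as in number 1. Over all arrays their medians were 0.05, 0.06, 0.08, -0.06 and -0.02, and 0 of their genes were called. Among the 2 genes of each with the smallest p were Lum and Dcn (0.16 and -0.22), Cx3cr1 and Csf1r (0.15 and 0.08), Krt8 and Cdh1 (-0.13 and 0.10), Aqp4 and Aldh1l1 (0.08 and -0.09) and Tek and Cdh5 (0.07 and -0.07). Their mean log2 values ran from 5.09 (Lum) to 8.67 (Pecam1). Of the neuroblast markers, 10 were measured, with mean log2 values of 9.03 (Th) to 13.48 (Stmn2) where the array medians were 7.86 to 7.93, and 8 of 10 had a lower mean in knockdown (median -0.15), Phox2a (-0.21) and Mycn (-0.27) among them, with 0 called. The variance filter was passed by 6 of the 10 neuroblast, 2 of the 5 microglia and macrophage and all 6 fibroblast markers. It was passed by 2 of the 4 astrocyte, 2 of the 4 endothelial and 3 of the 4 epithelial markers. The part of these markers in the ribosomal values was not tested.

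Further genes of the translation machinery were taken from fixed lists. Of 30 cytosolic initiation factors, 21 had a higher mean (median 0.06), and 0 were called with or without the block. Of all probe sets tested, 1.14% were called without the block and 7.65% with it. Only 7 of the 30 passed the variance filter, and the others could not be called. All knockdown arrays lay above all control arrays for 10 of the 30 (33.3%), against 8.47% of all genes. Eif4a2, an RNA helicase of the cap-binding complex, differed by 0.36 (limma adjusted p 0.266, and 0.0269 with the block, at 1.28-fold), and Eif4g2, which supports cap-independent initiation, by 0.27. Of 11 elongation and termination factors, 6 were higher (median 0.02), with 0.20 for Eif5a2 and 0.19 for the release factor Gspt1. The variance filter was passed by 4 of these 11, and 0 were called. Of 17 other mRNAs known to carry a TOP tract, 11 were higher and 0 were called (median 0.02), with 0.32 for the importin Ipo5 and 0.14 for the histone chaperone Nap1l1. Only 2 of the 17 passed the variance filter.

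Of 14 genes of translation control by mTOR and LARP1, 0 were called without the block and 2 with it, both lower. Only 8 of the 14 passed the variance filter, and the others could not be called. With the block, 7.65% of all probe sets tested were called, 572 of 896 of them lower. Pdcd4, an inhibitor of the helicase Eif4a, was measured at 11.84, 11.92 and 11.17 in control and 11.28, 11.43 and 10.71 in knockdown arrays. Both arrays of number 3 were low, and the groups overlapped because control 3 lay below knockdown 1 and 2. The difference was -0.50 (limma adjusted p 0.299 without and 0.0112 with the block). Eef2k, the kinase that inhibits elongation factor 2, was measured at 9.86, 9.71 and 9.75 in control and 9.42, 9.41 and 9.31 in knockdown arrays, without overlap. Its difference was -0.39 (limma adjusted p 0.2 and 0.0222). Rheb, the activator of mTOR, differed by 0.25 and was not called.

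Among the factors that serve the mitochondrial ribosome, 9 of 11 translation factors had a higher mean (median 0.08), with 0.30 for the elongation factor Gfm1 and 0.34 for the recycling factor Mrrf, and 0 were called. Of 16 mitochondrial aminoacyl-tRNA synthetases, 9 were higher (median 0.06), with 0.24 for Rars2 and -0.21 for Iars2, and 0 were called. The variance filter was passed by 5 of the 11 factors and 7 of the 16 synthetases, and the others could not be called. Of 23 genes of mitochondrial ribosome assembly and mitochondrial RNA, 14 were higher (median 0.03), and 10 of the 23 passed the variance filter. With the block 1 was called, beside the same background of 7.65%. This was Lrpprc, which stabilises mitochondrial mRNAs, at 11.19, 11.06 and 11.04 in control and 11.66, 11.46 and 11.38 in knockdown arrays. The groups did not overlap, and the difference was 0.41 (limma adjusted p 0.207 without and 0.0195 with the block). Gtpbp10, a GTPase of large-subunit assembly, differed by 0.33 and was not called.

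Some members share a promoter region with a neighbour transcribed in the opposite direction. Within 1000 bases of the start, 34 members had such a head-to-head neighbour in the RefSeq table, and 29 of these neighbours were measured. Member and neighbour lay on the same side of 0 in 17 of 29 cases, counting Mrpl46 and Mrps11, which face each other at 42 bases, from both sides. No background share for other gene pairs was computed. Mrpl27 differed by 0.00, while its neighbour Eme1, an endonuclease subunit of DNA repair whose start is 48 bases away, differed by 0.51 and rose with the replicate block (limma adjusted p 0.0172). Mrpl57 differed by -0.06, and Ska3, a spindle and kinetochore protein 76 bases away, by 0.50, again a rise with the block only (limma adjusted p 0.0137). The background of the blocked fit was 7.65% of all probe sets tested. Ndufb5, a respiratory complex I subunit 308 bases from Mrpl47, differed by 0.03 where Mrpl47 differed by 0.44. Mrpl18 and the chaperonin gene Tcp1, 238 bases apart, differed by 0.28 and 0.15. Differences within such pairs were not tested.

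**Figure D4:**
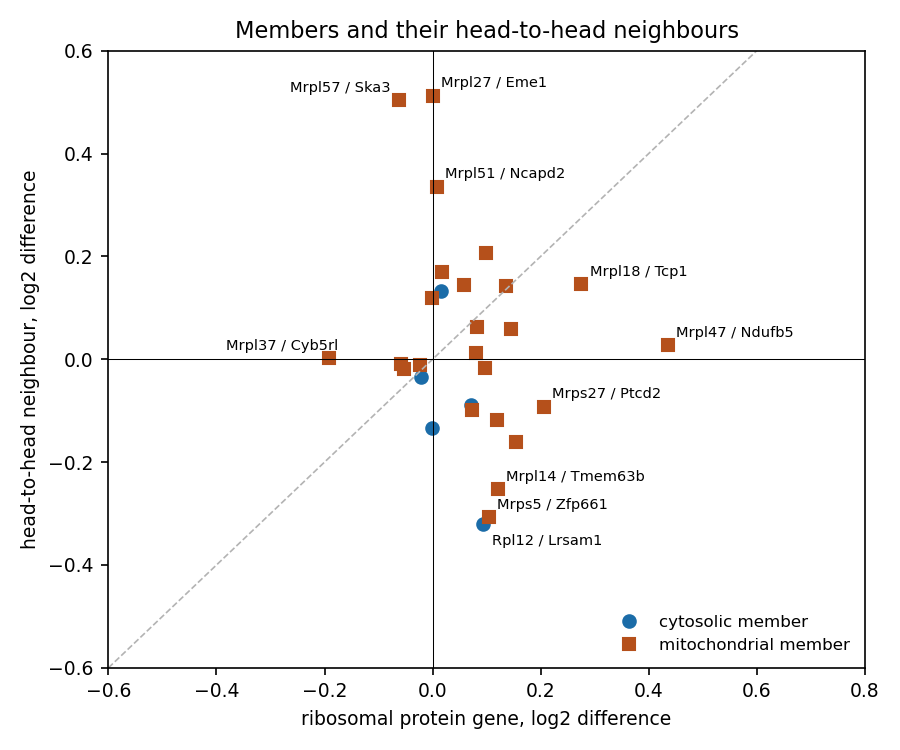
Log2 difference (knockdown minus control) of 29 ribosomal protein genes (x axis) and of the gene transcribed in the opposite direction from within 1000 bases (y axis), with the dashed line marking equal differences. The largest neighbour differences, those of Eme1 (0.51) and Ska3 (0.50), stand beside member differences near 0, and Mrpl47 (0.44) stands beside 0.03 for Ndufb5.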

How the data were processed

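Gene expression was measured in 6 N2A samples on 1-colour arrays. The authors background corrected and quantile normalised the arrays by RMA with the oligo package, and the deposited values are gene-level log2 values (2.76 to 14.8, 35556 rows). Versions of the authors' tools and the set of arrays that entered normalisation are not given in the sources used here. An annotation table paired 21789 rows with 1 symbol and 1621 with several; 12146 rows it does not list were left out.

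Following the methods of the study, 23410 annotated probe sets were filtered on variance, read here as an interquartile range above the median (11705 kept), and tested between groups in R 4.3.3 by the moderated two-sided statistic of limma 3.58.1. A call needed an adjusted p under 0.1 and a fold of at least 1.3. The procedure was run on simulated data with independent noise, without replicate pairing and with differences larger than those of any member. Those data do not cover paired arrays or differences of the size seen here. SE and adjusted p are from this fit for genes past the filter, and from the fit without the filter otherwise; 95% intervals, unadjusted p and medians are from the fit without the filter. The blocked fit leaves 2 residual degrees of freedom in place of 4. "Rose" and "fell" refer to calls.

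The labels name biological replicates without naming cultures or days, so a p-value reflects the spread over these samples alone, and the number of arrays limits precision. Correlations between arrays were 0.9904 to 0.9975. Deviations from the group means of arrays with the same replicate number correlated at 0.141, 0.646 and 0.655, all above 0.1, so the numbers in the labels were treated as pairs. For number 1 this was not specific, since control 1 correlated more with knockdown 2 (0.202).

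Members and lists were chosen with earlier results of these data known. Named were members called with or without the block, the 3 with the smallest p and the extremes of each subunit group, a fixed set of 22 genes, and of each list the called genes or the 2 with the smallest p; other named members were chosen after their values were seen. Alternatives varied the filter, centring, thresholds, block, probe set per gene and arrays left out.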

Additional observations from a re-analysis of the deposited data

How the results depend on the processing

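The count of cytosolic calls stayed at 0 in every setting run, and that of mitochondrial calls at 0 in every setting without the replicate block. With the block for the paired numbers there were 2 mitochondrial calls, Mrpl47 and Mrpl38. In settings chosen after seeing the data there were 2 without replicate 1, Mrpl47 and Mrpl19, and 0 without replicate 2 or 3, where fewer arrays were fitted. Over all probe sets the count of calls was 133, and 41 without the variance filter, 0 with that filter taken over all rows, 32 at an adjusted p under 0.05 and 896 with the block. With the block and without number 1, 2 or 3 it was 926, 0 or 1. Leaving out 1 array gave 4 (without knockdown replicate 1) to 508 (without knockdown replicate 2), with 53 and 63 without control replicates 1 and 2 and 331 without control replicate 3. The causes were not tested.

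Leaving out 1 array moved the cytosolic median between -0.02 and 0.03, the mitochondrial median between 0.01 and 0.11, and the difference of medians between 0.0027 (without knockdown replicate 3) and 0.096, with 0.018 without control replicate 2. Among members past the variance filter only, the cytosolic median was 0.059 and the difference of medians -0.0072. Centring each array on its median raised all differences by 0.03, more than the cytosolic median of 0.01 in the main setting. The medians of single classes and the counts of genes with a higher mean thus depend on this offset. Of the 31 members named by the rules given above, 22 kept the sign of their difference in all 11 settings run for them. The sign changed in some setting for 9, the largest of these at 0.11 in the main setting. Members chosen after their values were seen were not followed through these settings.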

Other observations

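Of 13 regulators of ribosomal protein and mitochondrial gene transcription, 9 had a higher mean in knockdown, the median was 0.06 and 0 were called with or without the block. Only 4 of the 13 passed the variance filter. Nrf1, a known activator of nuclear genes for mitochondrial function, differed by 0.24 and by 0.04, 0.29 and 0.39 within replicate numbers 1 to 3. Mycn, a known activator of ribosomal protein genes, differed by -0.27 and was lower in each number.

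Several head-to-head neighbours went the other way from their ribosomal protein gene. Rpl12 differed by 0.09 and Lrsam1, 71 bases away, by -0.32. Mrps5 differed by 0.10 and Zfp661, 332 bases away, by -0.31. Mrpl14 differed by 0.12 and Tmem63b, 131 bases away, by -0.25. None of these 3 neighbours was called with or without the block. With the block their limma adjusted p was 0.0567, 0.0454 and 0.0736 in the same order, but each stayed under 1.3-fold. The differences within pairs were not tested.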
